A study of Caenorhabditis elegans with 36 samples.

Results

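cel-mir-60, called mir-60 from here on, is a single row of a table of small RNA counts from whole Caenorhabditis elegans, 1 of 250 microRNA hairpins in the table and 1 of the 193 that held enough counts to be tested. It was picked by name, for its place in the intestine and its known part in the response to oxidative stress. The worms were hermaphrodites of N2, the wild-type strain, given rotenone at 100 nM, its solvent DMSO at 0.1 %, or H2O at 0.1 %. Rotenone and DMSO were sampled at 6 hours and at 1, 2, 3 and 5 days, and H2O at 1 and 5 days. In the series title the times run from the start of treatment, but the labels of the samples give them as the age of the worms. Each of the 12 groups had 3 libraries. Nothing in the labels ties these to separate cultures, so the spread behind every p-value is that of these samples and may be technical.

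microRNAs are short RNAs cut from a hairpin precursor and loaded into an Argonaute protein, which they guide to messenger RNAs through the bases of their seed. In C. elegans mir-60 is made mainly in the intestine, the worm's organ of digestion, fat storage and detoxification, and worms without it have been reported to survive chronic oxidative stress better than wild type. Rotenone blocks complex I of the mitochondrial respiratory chain, and a blocked complex I can release reactive oxygen species. The comparison of rotenone with DMSO therefore asks whether the level of mir-60 differed in worms under a mitochondrial stress. In the WBcel235 annotation mir-60 lies on chromosome II, on the minus strand, between sma-6, a receptor gene of body-size signalling, and set-4, a histone methyltransferase gene. It overlaps 0 protein-coding genes, and 0 other microRNA genes lie within 10 kb. Its hairpin transcript is 98 bases long and carries 2 annotated mature arms of 23 bases each. A non-coding RNA gene of 86 bases on the opposite strand, C32D5.15, overlaps mir-60. The counts do not separate the arms, and whether they were made by strand is not stated, so reads from C32D5.15 cannot be told apart from those of mir-60.

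Total counts ran from 4361246 to 14960062 per library, and mir-60 took 5730 to 31664 of them, or 0.126% to 0.237%. At that depth counting error alone gives a coefficient of variation (CV) of 0.562% to 1.32%. The spread between libraries of a group was wider, from a CV of 2.18% in rotenone at 6 hours to 14.8% in H2O at 5 days. By count it was between the 40th and the 49th hairpin of the 193 in each library. Markers of the other tissues were present in all libraries, as whole worms would have: mir-1 of muscle at 288 to 709 CPM, mir-228 of glia at 17150 to 45180 and mir-124 of neurons at 8.51 to 45.7. CPM are counts per 1000000, scaled between libraries by the trimmed mean of M-values (TMM). In whole worms fewer cells of a type and less RNA per cell cannot be told apart. Each group was sequenced on 1 lane, and rotenone and DMSO of the same time were always on different lanes. Lane and treatment within a time therefore cannot be told apart. Neighbouring times of a treatment were on different lanes too, as were 1 and 5 days. In those comparisons lane and time cannot be told apart.

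mir-60 kept to a narrow band of levels. Its 12 group means lay between 1662 ± 99.9 CPM (SD, n = 3), in rotenone at 1 day, and 2162 ± 133, in DMSO at 3 days, and the 36 libraries between 1479 and 2305. From the lowest group mean upward the order was rotenone at 1 day, DMSO at 1 day, H2O at 5 days, DMSO at 5 days, H2O at 1 day, DMSO at 6 hours, DMSO at 2 days, rotenone at 3 days, rotenone at 5 days, rotenone at 2 days, rotenone at 6 hours and DMSO at 3 days. Every group in that order overlapped the next, save the last step, where all 3 libraries of DMSO at 3 days lay above all 3 of rotenone at 6 hours. That step did not pass (log2 0.15 ± 0.093, adjusted p = 0.14). Adjusted p-values of the other neighbours ran from 0.66 to 0.991. The groups were ordered by these same values, so neighbours are close by construction. Their overlap and p-values therefore do not bear on the width of the band. The lowest and the highest group were not tested against each other. Values here and below are log2 fold changes ± SE. The test was the quasi-likelihood test of edgeR, with Benjamini-Hochberg adjustment over all 193 hairpins and a threshold of 0.05.

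**Figure D1:**
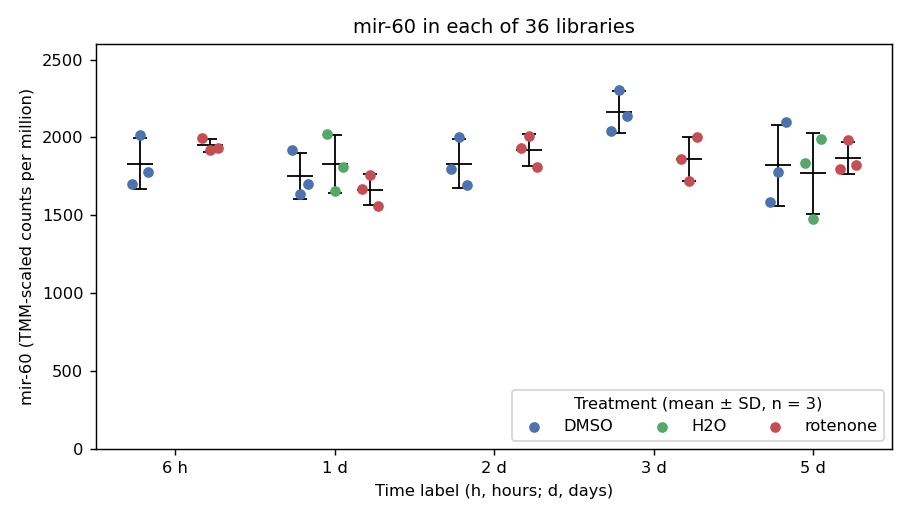
TMM-scaled CPM of mir-60 (vertical axis, from 0) in each of the 36 libraries, by time label (horizontal axis) and treatment (colour), with the mean ± SD of each group of 3 in black. All libraries lie between 1479 and 2305, and DMSO at 3 days is the highest group.

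The width of this band was small beside that of other hairpins. The highest and the lowest of the 12 group means of mir-60 were 0.38 apart on the log2 scale, against a median of 1.25 over the 193 hairpins. Only mir-55, mir-70 and mir-47, named after their values were seen, had a narrower range, so mir-60 was the 4th. Among the 50 hairpins with a mean of 1000 CPM or more it was also the 4th, against a median of 0.90. Its place depended on the scaling: it was the 5th with DESeq2 size factors, the 3rd when the mir-35 family was left out of the scaling, and the 15th with total counts, where its range was 0.50. Without the groups of 6 hours, in which many hairpins stood apart, it was the 14th, with the same range and a median of 0.95 over all hairpins. The pooled SD within groups was 0.13 on the log2 scale, against a median of 0.14 over all 193 hairpins. That median takes in hairpins of few counts, in which counting error is larger than in mir-60. It was not computed for the 50 abundant hairpins, so whether mir-60 was noisy for its level was not tested. These ranks are descriptions of the 12 groups and carry no test.

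**Figure D2:**
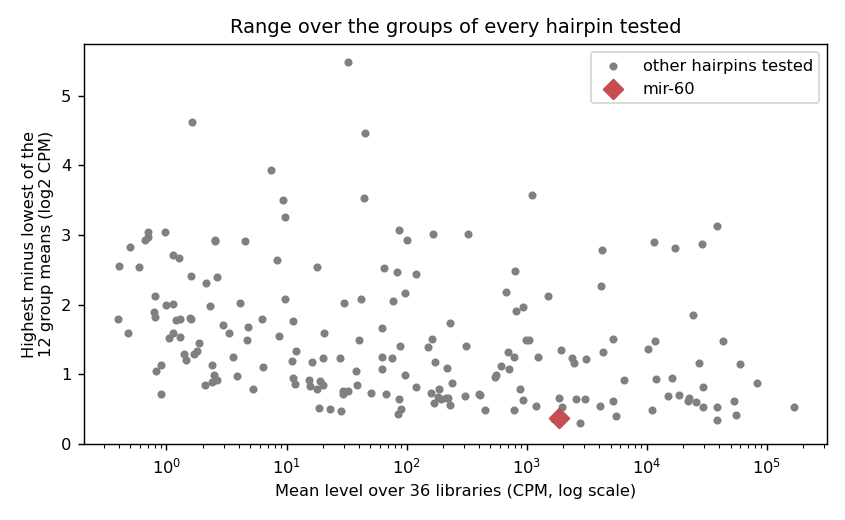
Difference between the highest and the lowest of the 12 group means (log2 CPM, vertical axis) against the mean level over all libraries (CPM, log scale, horizontal axis) for the hairpins tested, 1 point each, with mir-60 as a diamond. mir-60 lies at 0.38, near the lower edge, where the median hairpin lies at 1.25.

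Rotenone did not shift mir-60 past the threshold at any of the 5 times. At 6 hours the DMSO libraries held 1703, 2014 and 1776 CPM and the rotenone libraries 1997, 1917 and 1932. DMSO replicate 2 lay above all rotenone libraries and the other two lay below them. The difference was 0.09 ± 0.093 (adjusted p = 0.657). At 1 day DMSO held 1916, 1638 and 1700 CPM and rotenone 1667, 1760 and 1561, so the groups overlapped (-0.08 ± 0.093, adjusted p = 0.66). At 2 days DMSO held 1796, 2005 and 1696 and rotenone 1935, 2010 and 1812, again with overlap (0.07 ± 0.093, adjusted p = 0.612). At 5 days DMSO held 1582, 1776 and 2101, the rotenone libraries of 1794, 1982 and 1823 all lay inside that span, and the difference was 0.04 ± 0.093 (adjusted p = 0.918).

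At 3 days the groups came apart. DMSO held 2042, 2305 and 2139 CPM and rotenone 1864, 1718 and 2004, with every rotenone library below every DMSO library. The ratio was 0.861 (log2 -0.22 ± 0.093, 95% interval -0.40 to -0.03). With an adjusted p of 0.123 from edgeR it failed the correction over all hairpins. At this time 28% of the 193 hairpins had groups that did not overlap and 12.4% passed the threshold. The value stayed negative in all 13 alternatives, with adjusted p from 0.0421 to 0.337, and passed in 1 of them, total counts in place of TMM (-0.31). Total counts also moved the median of all hairpins here, from 0.01 to -0.08. Less that median, mir-60 stood at -0.23 with either scaling.

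Across the times the share of hairpins that passed between rotenone and DMSO was 11.9% at 6 hours, 16.6% at 1 day, 42.5% at 2 days, 12.4% at 3 days and 1.04% at 5 days. Groups that did not overlap made up 21.8%, 32.6%, 46.1%, 28% and 16.1% of hairpins at the same times. mir-60 was outside the share that passed each time, and at 2 days, when many hairpins moved, it ranked 151st of 193 by p. The 95% intervals at the single times reached from 0.756-fold at the lowest to 1.21-fold at the highest, so a change beyond that span lay outside the intervals at every time, and smaller changes did not. Averaged over the 5 times the difference was -0.02 ± 0.042 (0.986-fold, 95% interval 0.93 to 1.05, adjusted p = 0.764), a comparison in which 22.3% of hairpins passed. An additive model of treatment and time gave -0.02 ± 0.046 for the same average, and -0.00095 ± 0.044 with lane as a further term. The effect of rotenone did not differ between the 5 times past the threshold (F = 1.85 on 4 degrees of freedom, adjusted p = 0.226, with 45.1% of hairpins past it). The largest step between neighbouring times, 3 days minus 2 days, was -0.28 ± 0.13 (adjusted p = 0.101, with 24.9% of hairpins past the threshold). The other steps were -0.16 ± 0.13, 0.14 ± 0.13 and 0.25 ± 0.13, in comparisons where 16.1%, 13.5% and 3.11% of hairpins passed.

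**Figure D3:**
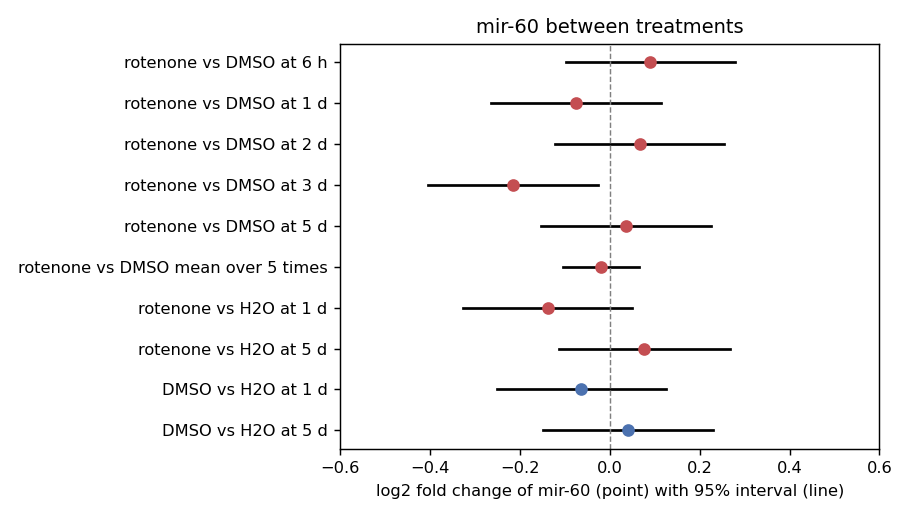
log2 fold change of mir-60 between treatments (points, red where rotenone is compared and blue for DMSO against H2O) with 95% intervals (lines). Of these 10 intervals, that of rotenone against DMSO at 3 days (-0.40 to -0.03) does not reach 0, and it did not pass after adjustment over all hairpins.

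The H2O worms gave a second control. At 1 day they held 2021, 1654 and 1813 CPM, a span that took in 2 of the 3 rotenone libraries, and rotenone against H2O was -0.14 ± 0.093 (adjusted p = 0.419). There 11.9% of hairpins passed the threshold and 32.1% had groups that did not overlap. At 5 days they held 1837, 1479 and 1989, a span that took in all rotenone libraries, and the difference was 0.08 ± 0.093 (adjusted p = 0.763, with 1.04% past the threshold and 18.7% without overlap). DMSO itself against H2O was -0.06 ± 0.093 at 1 day and 0.04 ± 0.094 at 5 days (adjusted p = 0.829 and 0.926). In these comparisons of the vehicles edgeR passed 0 of 193 hairpins, with 14 and 8 at an unadjusted p under 0.05, and DESeq2 passed 1 and 0.

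Over time in DMSO mir-60 rose to its highest level at 3 days and fell again by 5 days. The steps before that were -0.06 ± 0.093 from 6 hours to 1 day and 0.07 ± 0.093 from 1 to 2 days, in comparisons where 65.3% and 44% of hairpins passed the threshold. From 2 to 3 days it rose by 0.24 ± 0.093 (1.18-fold, adjusted p = 0.032, with 47.7% of hairpins past the threshold), and the libraries did not overlap, as in 52.3% of hairpins. From 3 to 5 days it fell by 0.25 ± 0.093 (to 0.842 of its level, adjusted p = 0.0271, with 45.6% past it), and here DMSO replicate 3 of 5 days, at 2101 CPM, reached into the range of 3 days, while 51.8% of hairpins had no overlap. A test of any difference between the 5 times in DMSO gave F = 3.35 (adjusted p = 0.023), where 89.6% of hairpins passed and mir-60 ranked 165th by p. That test did not pass without DMSO replicate 2 or 3 of 3 days (F = 1.69 and 2.55, adjusted p = 0.181 and 0.0621, from 0.00363 to 0.181 over its 22 alternatives). The rise passed in 4 of 15 alternatives (adjusted p from 0.0142 to 0.331). It did not pass with DESeq2 size factors or DESeq2 (0.20 in both), total counts (0.17), scaling without the mir-35 family (0.14) or no filter (0.21). It was also no longer past the threshold without DMSO replicate 1 or 3 of 2 days (0.22 and 0.19) or replicate 2 or 3 of 3 days (0.19 and 0.25), and the fall without replicate 2 of 3 days (-0.20) or replicate 1 or 2 of 5 days (-0.16 and -0.23). The fall was -0.45 with total counts, and -0.23 and no longer past the threshold with the mir-35 family out of the scaling (adjusted p from 0.000446 to 0.217 over 15 alternatives). DMSO at 2, 3 and 5 days ran on lanes 1, 3 and 1: the contrast within lane 1, 5 days against 2 days, was -0.0097 ± 0.093 (adjusted p = 0.937, with 67.9% of hairpins past the threshold). The rise and the fall each compare libraries of different lanes. Both use the 3 libraries of DMSO at 3 days, as do the difference from rotenone at 3 days and the top of the range. These are therefore not independent results. The step from 2 to 3 days common to DMSO and rotenone was 0.10 in an additive model of treatment and time. With lane added it was 0.11 (adjusted p = 0.279 without lane and 0.331 with it). Neither value is the step of DMSO alone.

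In rotenone mir-60 fell from 6 hours to 1 day by 0.23 ± 0.093 (to 0.853 of its level, adjusted p = 0.0297, with 63.7% of hairpins past the threshold), and the libraries did not overlap, as in 66.3% of hairpins. The same step in DMSO was -0.06 ± 0.093 (adjusted p = 0.552), and the steps of both treatments differed by -0.16 ± 0.13 (adjusted p = 0.462). From 1 to 2 days it stood 0.21 ± 0.093 higher (adjusted p = 0.0854) without overlap, where 35.2% of hairpins passed and 50.3% did not overlap. The later steps were -0.04 ± 0.093 (36.8% of hairpins past the threshold) and 0.0036 ± 0.093 (49.2%). Rotenone at 6 hours and at 1, 2, 3 and 5 days ran on lanes 1, 8, 2, 8 and 3. Each of these steps, the fall to 1 day included, compares libraries of different lanes. Within lane 8, 3 days against 1 day in rotenone was 0.16 ± 0.093 (adjusted p = 0.163, with 42.5% past the threshold). A test over all 5 times in rotenone gave F = 1.84 (adjusted p = 0.154), while 86.5% of hairpins passed it. The fall at 1 day was -0.41 with total counts, which moved the median of all hairpins from -0.05 to -0.22. Less that median, mir-60 stood at -0.18 with TMM and -0.19 with total counts. The fall was no longer past the threshold without rotenone replicate 1 or 3 of 6 hours (-0.21 and -0.24) or replicate 1 or 3 of 1 day (-0.23 and -0.19). From 1 to 5 days mir-60 changed by 0.06 ± 0.093 in DMSO, 0.17 ± 0.093 in rotenone and -0.05 ± 0.093 in H2O, with adjusted p of 0.62, 0.125 and 0.703 in comparisons where 63.2%, 59.1% and 57.5% of hairpins passed.

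The other intestinal markers compared, mir-786 and mir-240, did not keep to so narrow a band. mir-786, which acts in the intestine to set the defecation rhythm, and mir-240, encoded beside it, both rose from 1 to 5 days in all 3 treatments. In DMSO mir-786 went from 65.1 ± 4.81 to 131 ± 14.7 CPM (log2 1.01 ± 0.091, adjusted p = 2.16e-12) and mir-240 from 2619 ± 100.4 to 4040 ± 186 (0.63 ± 0.058, adjusted p = 4.59e-12). In H2O the changes were 1.00 ± 0.090 and 0.82 ± 0.058, and in rotenone 0.85 ± 0.092 and 0.38 ± 0.058, and all passed the threshold. mir-1 of muscle went the other way, from 627 ± 34.5 to 351 ± 56 CPM in DMSO (-0.83 ± 0.099, adjusted p = 2.36e-09), by -0.85 ± 0.099 in H2O and by -0.86 ± 0.099 in rotenone. For mir-786, mir-240 and mir-1 the direction and the call from 1 to 5 days held in each treatment under all 4 scalings tried. Libraries of 1 and 5 days ran on different lanes in each treatment, so these changes carry the lanes as well. The mir-35 family of oocytes and embryos took 2.46% ± 0.0524 of all counts in DMSO at 6 hours, 12.3% ± 0.563 at 1 day and 9.7% ± 0.414 at 5 days. Its part in any level of mir-60 was not tested, other than by leaving it out of the scaling.

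Ratios within a library, which no scaling factor enters, set mir-60 apart from these markers directly. The relation was tested after the values were seen, for 8 ratios and contrasts in one family. Over the 3 treatments log2 of mir-60 over mir-786 went from 4.67 at 1 day to 3.77 at 5 days, a difference of -0.90 (SD 0.19 over treatments), lower in 3 of 3 treatments and with 0 overlap in any. For mir-60 over mir-240 the difference was -0.56 (SD 0.33), and for mir-60 over mir-1 it was 0.91 (SD 0.12), each in the same direction and without overlap in 3 of 3 treatments. An exact two-sided permutation test of the time labels within treatments gave p = 0.00025 for each of these, the smallest it can give, and 0.000667 adjusted over the 8. For mir-60 over mir-228 of glia the difference was 0.32 (SD 0.34), positive in 2 of 3 treatments (exact p = 0.0145, adjusted 0.029). These ratios show unequal change between the members of a pair and not which of them moved. In each treatment 1 and 5 days ran on different lanes, so the ratios and their p-values carry the lanes as well as time.

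**Figure D4:**
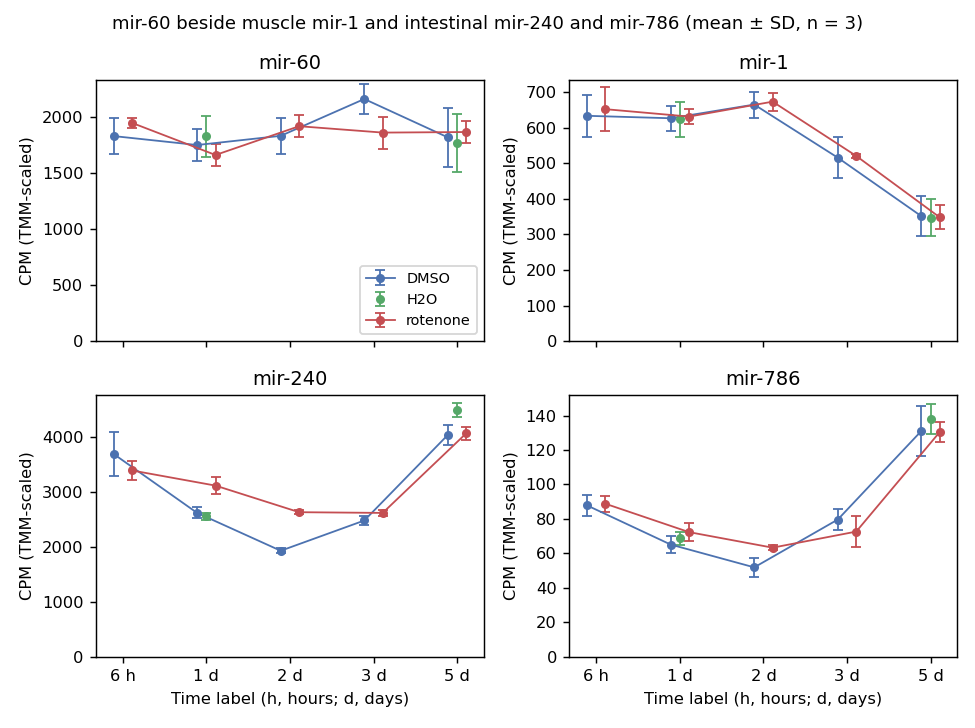
Mean ± SD (n = 3) of mir-60, muscle mir-1 and intestinal mir-240 and mir-786 in CPM (vertical axes, from 0) by time label, for DMSO, H2O and rotenone. mir-60 stays between 1662 and 2162 CPM, while mir-786 in DMSO goes from 65.1 at 1 day to 131 at 5 days and mir-1 from 627 to 351.

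The intestinal markers were also compared between treatments. At 2 days mir-240 stood at 1885 to 1975 CPM in DMSO and 2598 to 2662 in rotenone, and rose by 0.45 ± 0.058 (adjusted p = 1.13e-07). mir-786 rose by 0.29 ± 0.091 (adjusted p = 0.0112, and 0.0596 with total counts), from 51.9 ± 5.34 to 63.3 ± 1.48 CPM. In the same comparison mir-60 stood at 0.07. At 6 hours, 1, 3 and 5 days mir-240 stood at -0.12, 0.25, 0.08 and 0.01. Of these only 1 day passed the threshold (adjusted p = 0.00192). At the same times mir-786 stood at 0.02, 0.15, -0.13 and -0.01 and did not pass. Over the 5 times log2 of mir-60 over mir-240 was lower in rotenone by a mean of -0.15 (SD 0.26 over times), in 3 of 5 times, with an exact two-sided permutation p of 0.03 for treatment labels within times and 0.0415 adjusted over the 8. At 6 hours that ratio went the other way without overlap, at -0.80 in rotenone and -1.01 in DMSO. The mean over the 5 times for mir-60 was 0.19 (SD 0.29) over mir-228 (exact p = 0.0311, adjusted 0.0415, in 3 of 5 times). It was -0.08 (SD 0.14) over mir-786 (exact p = 0.12) and -0.03 (SD 0.13) over mir-1 (exact p = 0.438). Rotenone and DMSO shared no lane at any time, so these means carry the lanes as well.

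Of other microRNAs associated with stress, a list of 10 holds mir-34, a responder to DNA damage, and mir-71, which supports lifespan and stress resistance. Between rotenone and DMSO 1 of the 10 was lower past the threshold at 6 hours, as were 10.9% of all hairpins, but with total counts 1 was higher and 0 lower. At 1 day 2 were higher (10.4% of all hairpins were higher and 6.22% lower), and with total counts 1 went each way. At 2 days 6 were higher and 0 lower, where 21.2% of all hairpins were higher and 21.2% lower. Their median there was 0.17 against 0.02 over all hairpins, and 2 passed with total counts or with the mir-35 family out of the scaling. At 3 days 1 was higher and 1 lower (8.29% and 4.15% of all hairpins), against 0 and 2 with total counts, and at 5 days 2 were lower (1.04%), against 0 with total counts. At 3 days, where mir-60 stood at -0.22, the 10 ran from -0.16 for mir-246 to 0.16 for mir-34. From 3 to 5 days in DMSO, when mir-60 fell, 7 of the 10 rose and 0 fell, where 22.8% of all hairpins went each way (median 0.39 against -0.0041 over all hairpins), and with total counts 5 rose and 2 fell. The smallest p-values were those of mir-34 (0.82 ± 0.051, adjusted p = 5.14e-16) and mir-239a (0.95 ± 0.063, adjusted p = 1.62e-15), whose loss has been reported to lengthen life. From 2 to 3 days in DMSO 6 rose and 1 fell, where 24.4% of all hairpins rose and 23.3% fell (median 0.23 against 0.0075 over all hairpins), again with mir-34 (0.54 ± 0.051) and mir-239a (0.56 ± 0.063) in front. From 6 hours to 1 day in rotenone 5 rose and 2 fell, where 32.6% rose and 31.1% fell (median 0.16 against -0.05), led by mir-71 (0.79 ± 0.064) and mir-246 (-0.40 ± 0.053), and with total counts 3 rose and 3 fell.

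Few hairpins followed the group means of mir-60. Among the 192 others Pearson's r over the 12 group means of log2 CPM had a median of -0.06, and 0 exceeded 0.8. The 5 highest were mir-236 (0.78), a relative of the vertebrate miR-200 microRNAs, mir-244 (0.63), mir-251 (0.52), mir-62 (0.44) and mir-53 (0.43). The lowest were mir-354 (-0.81), mir-8195 (-0.73) and mir-8210 (-0.60), at means of 2.94, 0.997 and 3.29 CPM. All 12 means come from the same libraries and share their scaling, and Spearman's rho for mir-236 was 0.49. Without DMSO at 3 days and rotenone at 1 day, the groups farthest from the median of mir-60, r was 0.19 for mir-236 and 0.11 for mir-244. The likeness over the 12 groups thus leaned on those groups. They hold the ends of the narrow range of mir-60, so leaving them out tends to weaken any correlation with it. For mir-354 r went to -0.43. The drop is therefore not particular to mir-236 or mir-244. mir-244 was lower in rotenone than in DMSO at 2 days (-0.93 ± 0.083, adjusted p = 4.65e-11), when mir-60 stood at 0.07. At 6 hours, 1, 3 and 5 days mir-244 stood at 0.20, -0.47, -0.58 and -0.13, and mir-60 at 0.09, -0.08, -0.22 and 0.04. The directions were thus shared at 6 hours, 1 and 3 days and opposite at 2 and 5 days. For mir-244, 1 and 3 days passed as well (adjusted p = 0.000127 and 6.04e-06). mir-236 stood at 5721 ± 306 CPM in DMSO at 2 days, 6572 ± 137 at 3 days and 5654 ± 248 at 5 days. It rose by 0.20 ± 0.053 (adjusted p = 0.00185) and fell by 0.22 ± 0.053 (adjusted p = 0.000726) over these steps. In rotenone mir-236 also rose from 2 to 3 days (0.19, adjusted p = 0.0041) and fell by 5 days (-0.13, adjusted p = 0.0365). mir-60 stood at -0.04 and 0.0036 there. Over the 2 earlier steps in rotenone mir-236 stood at -0.15 and 0.11, and mir-60 at -0.23 and 0.21. Between rotenone and DMSO at 3 days mir-236 stood at -0.11 ± 0.053 (adjusted p = 0.178). Its range over the groups was 0.41, the 5th narrowest of the 193, next to that of mir-60.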

How the data were processed

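Whole-worm total RNA went into 36 TruSeq small RNA libraries, per the labels' protocols, and the authors deposited the raw read count of each microRNA hairpin. Tools named in the submitters' processing notes are BWA 0.7.12-r1039, SAMtools 1.3.1-9, Trimmomatic 0.36 and bcl2fastq 1.8.4. Not given in the sources used here are the build, the microRNA annotation, the use of strand and the handling of reads with several matches, and coordinates are left out. Gene neighbours come from the Ensembl annotation of WBcel235, and 0 rows of the table named no microRNA.

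filterByExpr (minimum count 10, R 4.3.3) kept 193 hairpins, and those left out held 0.000733% of the counts. After TMM scaling with factors of 0.854 to 1.16, edgeR 4.0.16 fitted a mean per group over all libraries, with a spread shared by the groups on 24 residual and 12.6 prior degrees of freedom. Log values for ranges and correlations use a prior count of 2. Counting intervals cover counting error only, and the others the error of the model. Pairs of libraries within a group differed beyond sampling noise, with a chi-square per degree of freedom of 18.5 to 425. The procedure was tested on simulated data. Alternatives were DESeq2 size factors, total counts, scaling without the mir-35 family, no filter, DESeq2 1.42.0, a replicate block, a fit of the compared groups alone, each library left out in turn and a lane term for the mean over times. Additive models of the time steps and of treatment and time without lane, contrasts within a lane and ratios were added after the values were seen.

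mir-60, the lists and the tests were chosen with earlier results of these data known. Named are mir-60, the 5 hairpins most and the 3 least like it, the tissue markers, and up to 2 stress-associated microRNAs with the smallest p where mir-60 itself passed.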

Additional observations from a re-analysis of the deposited data

How the results depend on the processing

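Rotenone against DMSO did not pass the threshold for mir-60 at 6 hours, 1, 2 or 5 days or on average in any alternative run, and at 3 days it passed with total counts (-0.31). Total counts moved the median of all hairpins from 1 to 5 days in DMSO to -0.25 from -0.04, so its changes to 5 days are to be read against that shift. The same holds for rotenone 1 day against 6 hours (median to -0.22 from -0.05) and rotenone against DMSO at 3 days (to -0.08 from 0.01). Directions that turned were those of values near 0: with total counts DMSO 5 days against 1 day (-0.16) and rotenone 5 days against 3 days (-0.079); with the mir-35 family out of the scaling rotenone against DMSO at 2 days (-0.0023) and at 5 days (-0.0020) and rotenone 5 days against 3 days (-0.0045); without the filter the mean over times (0.00041) and rotenone 5 days against 3 days (-0.014). Additive models fit 1 time step common to the treatments, of which H2O was sampled only at 1 and 5 days. Their values are therefore not those of 1 treatment. Rotenone 3 days against 2 days turned to 0.10 without and 0.11 with lane, and 5 days against 3 days to -0.15 and -0.17.

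Past the threshold only in an alternative were rotenone 2 days against 1 day (0.28 with DESeq2 size factors and with DESeq2, 0.29 with total counts, 0.21 with only the groups compared), rotenone 5 days against 1 day (0.22 with size factors, 0.17 with only the groups compared), the test over 5 times in rotenone (F = 5.05 with total counts, 3.43 without the filter, 3.98 with only the groups compared), H2O 5 days against 1 day (-0.25) and DMSO 5 days against 2 days (-0.28) with total counts, and rotenone 3 days against 1 day (0.16 with only the groups compared). The additive model with lane also passed for the common step from 6 hours to 1 day (-0.15, and -0.12 without lane), set against DMSO, and for that from 3 to 5 days (-0.17), set against rotenone. No longer past it were DMSO 3 days against 2 days (0.20 with size factors and with DESeq2, 0.17 with total counts, 0.14 without the mir-35 family, 0.21 without the filter, 0.10 and 0.11 in the additive models without and with lane), DMSO 5 days against 3 days (-0.23 without the mir-35 family, -0.15 in the additive model without lane) and rotenone 1 day against 6 hours (-0.12 in that model). The cause was not tested.

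With single libraries left out, values ranged from 0.19 to 0.31 for DMSO 3 days against 2 days, -0.36 to -0.16 for 5 days against 3 days, F = 1.69 to 4.77 over 5 times, and -0.27 to -0.19 for rotenone 1 day against 6 hours. They crossed 0 for DMSO 1 day against 6 hours (-0.13 to 0.0097), 2 days against 1 day (-0.0042 to 0.13), 5 days against 1 day (-0.061 to 0.15) and 5 days against 2 days (-0.13 to 0.081), DMSO against H2O at 1 day (-0.13 to 0.015) and 5 days (-0.076 to 0.13), H2O 5 days against 1 day (-0.14 to 0.064), rotenone 3 days against 2 days (-0.0995 to 0.011) and 5 days against 3 days (-0.051 to 0.060), rotenone against DMSO at 5 days (-0.055 to 0.15) and on average (-0.038 to 0.0036), and rotenone against H2O at 5 days (-0.036 to 0.17). Counts of hairpins past the threshold moved by over 1.5 times in these comparisons. Rotenone against DMSO at 6 hours passed 23, and 13, 10, 8 and 5 with size factors, total counts, no filter and only the groups compared, at 3 days 24, and 15 with only the groups compared, and at 5 days 2, and 1, 0, 0 and 0 with the same 4 alternatives. Its mean over times passed 43, and 23 in the additive model without lane and 20 with lane, and the effect of 1 day minus 6 hours 31, and 19, 18 and 18 with size factors, total counts and no filter. Rotenone against H2O passed 23 at 1 day, and 37 with only the groups compared, and 2 at 5 days, and 0 with total counts, without the mir-35 family, without the filter and with only the groups compared, 8 with the replicate block and 4 with DESeq2.

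Same-numbered libraries share only a number: of 198 pairs 31 correlated over 0.1, and 7 of 36 libraries correlated best with their own number. With the replicate block no call of mir-60 changed, for example -0.22 for rotenone against DMSO at 3 days (adjusted p = 0.124), and 25 hairpins passed there in place of 24.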

Other observations

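Within groups the CPM of mir-60 tended to go with library depth, by Pearson's r more than by rank. Over the 36 libraries, as deviations from their group means, Pearson's r between log2 CPM of mir-60 and log2 total counts was 0.507 (permutation within groups, 100000 resamples, p = 0.0277) and Spearman's rho 0.406 (permutation p = 0.0587). Without the 2 libraries farthest in depth r was 0.388. By this r mir-60 was the 6th highest of 193 hairpins, whose median was -0.0059, and it was looked at after the values were seen. The deepest library held the highest mir-60 level in 5 of 12 groups and the shallowest the lowest in 5 of 12. With 3 libraries in a group, these counts lie close to those without any relation. The part of depth in the comparisons of groups was not tested.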
